A study of Mus musculus with 12 samples.

Results

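The 38 mouse genes whose symbols name chemokine ligands were followed through the mesenchyme of the developing bladder and urethra. Members were all gene symbols listed in both count tables that join Ccl, Cxcl, Cx3cl or Xcl to a number and at most 1 lower-case letter. The rule took 38 of 55228 genes: 23 CC, 13 CXC, 1 CX3C and 1 C ligand. A low-count filter left 17 of the 38 for testing, and the remaining 21 are accounted for by their counts.

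RNA came from female wild-type CD-1 embryos, an outbred laboratory stock, that had received no treatment. The 4 groups of 3 libraries each were E18.5 bladder mesenchyme, E18.5 urethral mesenchyme, E14.5 bladder mesenchyme and E14.5 urethral mesenchyme, with stages in days after conception. Tissue of the female embryos of 1 litter was pooled for each library, the 3 replicates of a group came from independent litters, and mesenchyme was freed from epithelium with trypsin on ice and fine forceps. The study asked which genes mark each compartment. Single embryos cannot be told apart in pooled tissue, and all results concern females only.

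Chemokines are small proteins, most of them secreted, that bind proteoglycans of the matrix, form gradients and steer cell movement through G protein-coupled receptors on leukocytes, endothelium, neurons and progenitor cells. Atypical receptors bind the same ligands without G protein signalling and remove or redistribute them. Homeostatic ligands are made steadily and guide cells during organ formation, whereas inflammatory ligands are made mainly by activated leukocytes, endothelium and epithelium.

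Library totals ranged from 21495169 to 36349777 counts, so that 3 counts corresponded to 0.08253 to 0.1396 CPM, which is the count scaled to a common library total. The 10 mesenchymal markers examined, such as Col1a1 and Vim, were abundant in all libraries, with summed levels of 28540 to 34290 CPM in E18.5 bladder and 16920 to 18770 CPM in E18.5 urethra, and of 19860 to 26520 CPM in E14.5 bladder and 8303 to 12610 CPM in E14.5 urethra. Epithelial markers (16 genes) were also found in each library, at 10240 to 13470 CPM in E18.5 bladder and 2983 to 4484 CPM in E18.5 urethra, and at 325.9 to 1749 CPM in E14.5 bladder and 727.1 to 1586 CPM in E14.5 urethra. On the first principal component of all tested genes, which held 44.7% of the variance, the E14.5 libraries numbered 1, in bladder and in urethra alike, fell closer to the E18.5 side than the other 2 of their group. They also had the highest epithelial sums of their groups, 1749 CPM in bladder (others 484.4 and 325.9) and 1586 CPM in urethra (others 727.1 and 823.4). Sums of 10 skeletal muscle markers were 274.8 CPM in bladder (others 30.08 and 18.21) and 127.2 CPM in urethra (others 9.707 and 12.96). The part of these markers in the ligand results was not tested. Ligand and receptor calls that changed without the E14.5 libraries numbered 1 are given both ways for the genes named. Stage coincides with the litters and with the deposited table, so that their parts in an E18.5 to E14.5 difference cannot be told apart.

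Per summed exon length, Cxcl14 and Cxcl12 were by far the most abundant ligands in urethral mesenchyme, and Cxcl12 was the most abundant in bladder mesenchyme. In TPM, which also divides by the deposited exon length of each gene, Cxcl12 stood at 80.6 ± 4.19 in E18.5 bladder and 201 ± 30.5 in E18.5 urethra, and at 123 ± 10.04 in E14.5 bladder and 209.7 ± 39.3 in E14.5 urethra (SD, n = 3 each). Cxcl14 stood at 43.6 ± 13.15 TPM in E18.5 bladder and 215 ± 45.5 TPM in E18.5 urethra, and at 31.8 ± 3.28 TPM in E14.5 bladder and 184 ± 58.6 TPM in E14.5 urethra. In urethral mesenchyme of either stage the TPM order of the pair was within the spread between libraries. That order and the shares below depend on the deposited exon lengths, 8176 bases for Cxcl12 and 1827 for Cxcl14. These lengths sum all annotated exons of a gene and are not the length of a transcript. In CPM, Cxcl12 averaged 405.4 and Cxcl14 96.81 in E18.5 urethra. Summed over all 38 ligands, the level was 215.7 ± 6.67 TPM in E18.5 bladder and 651.6 ± 76.2 TPM in E18.5 urethra, and 217.8 ± 25.8 TPM in E14.5 bladder and 483.2 ± 116 TPM in E14.5 urethra. Cxcl12 made up 37.4% of that sum in E18.5 bladder, 30.8% in E18.5 urethra, 56.7% in E14.5 bladder and 43.7% in E14.5 urethra. Next in urethral mesenchyme of both stages came Cxcl15, which averaged 75.8 TPM at E18.5 and 20.04 TPM at E14.5. In bladder mesenchyme it averaged 3.47 TPM at E18.5 and 2.11 TPM at E14.5, where Ccl11 at E18.5 (19.02 TPM) and Cx3cl1 at E14.5 (12.6 TPM) came next after Cxcl12 and Cxcl14. Apart from Cxcl12, Cxcl14 and Cxcl15, all ligands had group means of 25.3 TPM or less, the highest being Cxcl16 in E18.5 urethra.

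The comparison of bladder with urethral mesenchyme showed more ligand calls in the urethra's favour than in the bladder's. At E18.5, 6 of the 17 tested ligands were called (edgeR's quasi-likelihood test, adjusted p under 0.05), against 34.8% of all 18805 tested genes called in either direction. All 6 were lower in bladder (Cxcl12, Cxcl14, Cxcl15, Cxcl5, Ccl2 and Ccl27a), against 16.2% of all tested genes called lower. At E14.5, 3 of 17 were lower in bladder (Cxcl12, Cxcl14 and Cxcl15), against 12.5% of all tested genes, and 1 was higher (Ccl24), against 12.4%. The median log2 difference, bladder minus urethra, was -0.81 over the 17 ligands at E18.5, beside 0.05 over all tested genes, and -0.35 over the ligands at E14.5, beside -0.00. For the change of that difference between stages, E18.5 minus E14.5, edgeR called 0 ligands higher, against 4.64% of all tested genes, and 0 lower, against 4.03%. Unadjusted p was under 0.05 for 3 ligands (Ccl9, Cxcl5 and Cx3cl1), and DESeq2 called 1, Ccl9. At E18.5 1 ligand, Ccl24, had a higher bladder level at an unadjusted p under 0.05, and DESeq2 and limma-voom called it.

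**Figure D1:**
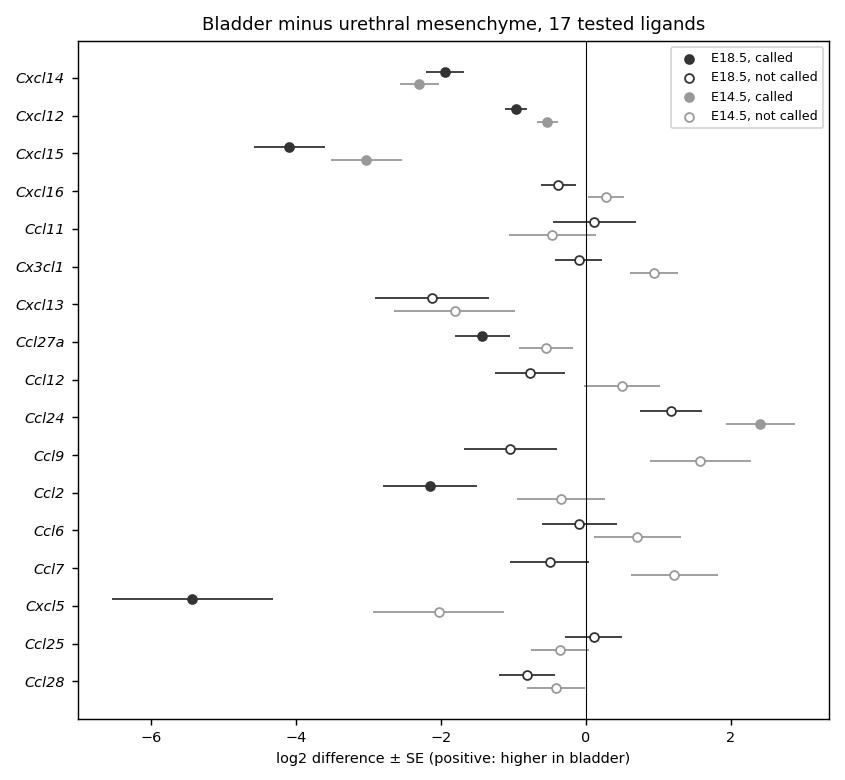
Log2 difference ± SE of bladder minus urethral mesenchyme for the 17 tested ligands, ordered by level, with E18.5 in black above E14.5 in grey and filled points for calls. Cxcl14, Cxcl12 and Cxcl15 lie left of 0 at both stages, and the E18.5 point of Cxcl5 lies farthest left at -5.43.

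The comparison of E18.5 with E14.5 gave most of its calls in the urethra. In urethral mesenchyme 8 of 17 tested ligands were higher at E18.5 (Ccl6, Ccl7, Ccl9, Ccl12, Ccl24, Cx3cl1, Cxcl15 and Cxcl16), against 13.6% of all tested genes, and 0 were lower, against 10.8%, also at an unadjusted p under 0.05. In bladder mesenchyme 3 of 17 were higher at E18.5 (Ccl6, Ccl11 and Cxcl16), against 23.7% of all tested genes, and 1 was lower (Cxcl12), against 22%. The median log2 difference, E18.5 minus E14.5, was 1.15 over the 17 ligands in urethra, beside -0.06 over all tested genes, and 0.39 in bladder, beside -0.02. The comparisons draw on the same 12 libraries, so their values are set side by side and no agreement between them is counted.

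**Figure D2:**
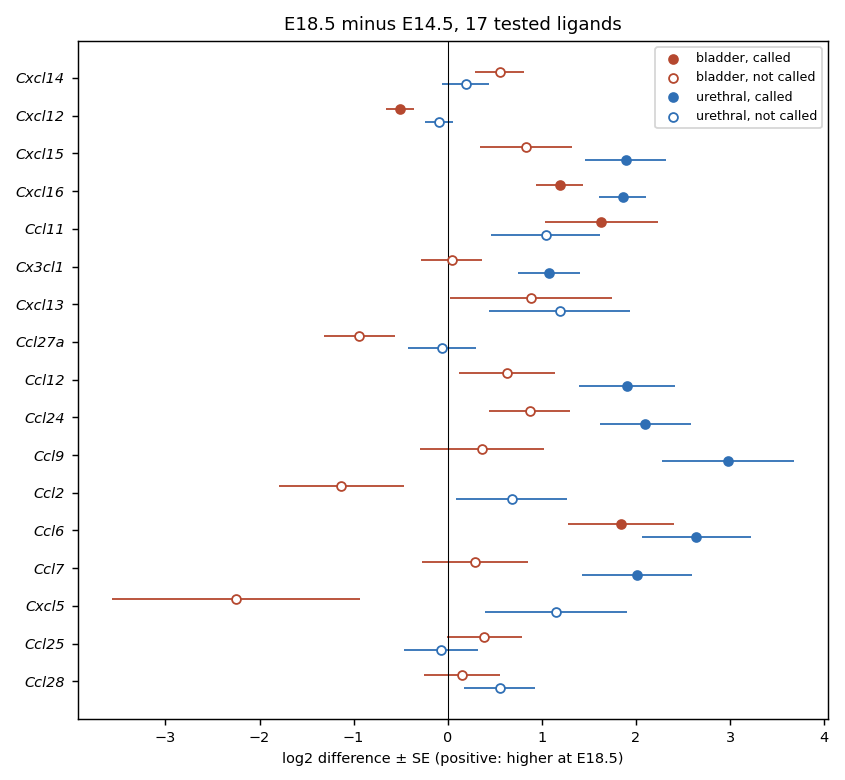
Log2 difference ± SE of E18.5 minus E14.5 for the 17 tested ligands, with bladder mesenchyme in red above urethral mesenchyme in blue and filled points for calls. All 8 urethral calls lie right of 0, and Cxcl12 in bladder, at -0.51, is the filled point left of 0.

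Cxcl12, also called stromal cell-derived factor, is the ligand of Cxcr4 and guides migrating progenitors, neurons and endothelium. It had 210.4, 225 and 190.2 CPM in the E18.5 bladder libraries, against 451, 350.1 and 415 CPM in the E18.5 urethral libraries. At E14.5 it had 314, 298 and 280.5 CPM in bladder, against 538, 394 and 362 CPM in urethra. At both stages each bladder library lay below each urethral library, and each E18.5 bladder library also lay below each E14.5 bladder library. The log2 difference of bladder minus urethra was -0.96 ± 0.15 at E18.5 (adjusted p = 0.000442) and -0.53 ± 0.15 at E14.5 (adjusted p = 0.0242). The E14.5 call was lost without bladder replicate 2 (adjusted p = 0.0652), without bladder replicate 3 (0.0908) and without urethral replicate 1 (0.086), with log2 differences of -0.54, -0.49 and -0.34. Without replicate 1 of both E14.5 groups the log2 difference was -0.40 (adjusted p = 0.0766). In bladder, Cxcl12 was lower at E18.5 (log2 difference -0.51 ± 0.15, adjusted p = 0.0158), a call that was lost without E18.5 bladder replicate 3 (-0.45, adjusted p = 0.0633). In urethra the E18.5 minus E14.5 log2 difference was -0.09 ± 0.15 (adjusted p = 0.712).

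Cxcl14, a ligand made steadily by many epithelia and stromal tissues whose signalling receptor is not settled, had 32.8, 24.7 and 18.1 CPM in E18.5 bladder, against 115, 79.6 and 95.7 CPM in E18.5 urethra. The E14.5 values were 18.4, 14.8 and 18.4 CPM in bladder, against 118, 60.9 and 75.4 CPM in urethra. The lowest urethral library stood above the highest bladder library of either stage. Bladder was lower by a log2 difference of -1.94 ± 0.26 at E18.5 (adjusted p = 0.000165) and -2.30 ± 0.27 at E14.5 (adjusted p = 0.000222). Both calls held under each alternative run. Between stages the libraries overlapped in either compartment, and the log2 difference of E18.5 minus E14.5 was 0.55 ± 0.26 in bladder (adjusted p = 0.105) and 0.19 ± 0.25 in urethra (adjusted p = 0.627). The bladder difference was called without E18.5 bladder replicate 3 (0.75, adjusted p = 0.043). It was also called with replicate number as a block (0.52, adjusted p = 0.0378), but equal numbers across stages are different litters.

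Cxcl15, known as lungkine from the mouse, where it attracts neutrophils, had 2.17, 2.145 and 2.66 CPM in E18.5 bladder, against 45.7, 26.9 and 46.4 CPM in E18.5 urethra. E14.5 levels were 2.70, 0.787 and 0.476 CPM in bladder, against 12.1, 12.45 and 7.53 CPM in urethra. The groups did not overlap between compartments at either stage, and each E18.5 urethral library lay above each E14.5 urethral library. The log2 difference of bladder minus urethra was -4.09 ± 0.49 at E18.5 (adjusted p = 6.85e-05) and -3.03 ± 0.49 at E14.5 (adjusted p = 0.00133). Bladder replicate 1 was the highest of its E14.5 group, and without it the E14.5 difference was -4.08 (adjusted p = 4.36e-05). Without replicate 1 of both E14.5 groups it was -3.99 (adjusted p = 7.06e-05). In urethra, Cxcl15 rose at E18.5 by a log2 difference of 1.89 ± 0.43 (adjusted p = 0.00897), 3.71-fold. In bladder the stage difference of 0.83 ± 0.49 was not called (adjusted p = 0.187), and it was 1.88 without E14.5 bladder replicate 1 (adjusted p = 0.00198).

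The start regions of these 3 genes are shown because they carried the calls shared by both stages. Each sequence runs from 250 bases before to 50 bases after the annotated start, from RefSeq on GRCm38.p6, on the strand of the gene, with matches to a TATA box (TATAAA) or a GC box (GGGCGG, or CCGCCC on the other strand) in capitals. The windows are chr6:117168285-117168584 on the plus strand for Cxcl12, chr13:56296502-56296801 on the minus strand for Cxcl14 and chr5:90794284-90794583 on the plus strand for Cxcl15.
Cxcl12: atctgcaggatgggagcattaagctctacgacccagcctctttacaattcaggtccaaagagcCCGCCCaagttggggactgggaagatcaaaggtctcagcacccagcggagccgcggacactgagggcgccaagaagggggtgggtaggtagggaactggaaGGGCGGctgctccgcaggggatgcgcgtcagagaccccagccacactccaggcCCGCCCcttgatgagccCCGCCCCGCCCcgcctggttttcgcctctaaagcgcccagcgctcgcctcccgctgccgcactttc
Cxcl14: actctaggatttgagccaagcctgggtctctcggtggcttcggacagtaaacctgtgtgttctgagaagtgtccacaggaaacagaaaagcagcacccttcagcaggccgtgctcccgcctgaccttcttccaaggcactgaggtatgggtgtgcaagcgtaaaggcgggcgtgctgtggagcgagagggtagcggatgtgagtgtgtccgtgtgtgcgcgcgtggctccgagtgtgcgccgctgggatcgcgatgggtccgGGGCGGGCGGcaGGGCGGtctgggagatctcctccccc
Cxcl15: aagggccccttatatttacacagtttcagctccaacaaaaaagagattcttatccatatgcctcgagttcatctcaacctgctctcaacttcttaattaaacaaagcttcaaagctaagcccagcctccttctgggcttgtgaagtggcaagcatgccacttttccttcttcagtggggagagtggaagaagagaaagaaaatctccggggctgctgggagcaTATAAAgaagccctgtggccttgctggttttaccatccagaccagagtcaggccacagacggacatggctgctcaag
The Cxcl12 window held 5 GC boxes, beginning 187, 86, 33, 16 and 11 bases before the start, of which the last 2 overlap, and had a GC content of 64.7%. The Cxcl14 window held 3 GC boxes, beginning at transcript bases 13, 17 and 25, of which the first 2 overlap, and had a GC content of 62.7%. The Cxcl15 window held no GC box and 1 TATA box, beginning 27 bases before the start, with a GC content of 47.7%. The median GC content over all 32851 promoter windows was 52.7%, and searched on both strands, 35.7% of them held a GC box and 13.6% a TATA box. Of 27 ligands with a window in the table, 7 had a GC box and 10 a TATA box in any of their windows. Some ligands had several windows, so these counts are per gene and the shares are per window. A 10-base NF-kB motif with 1 free position was found in 3 of the 27 (Cxcl1, Cxcl2 and Cxcl3), against 0.411% of all windows, and those 3 genes were too low to test. These matches describe the letters only.

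**Figure D3:**
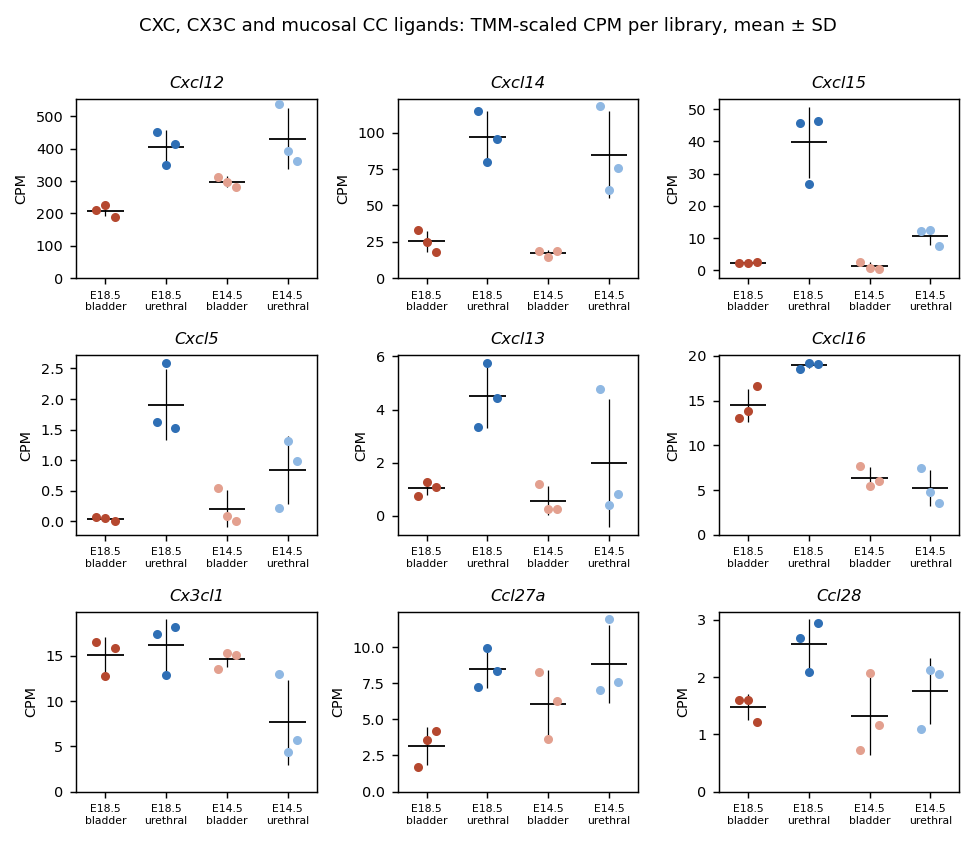
CPM of 9 CXC, CX3C and mucosal CC ligands in each of the 12 libraries (points), with the mean (horizontal bar) and SD (vertical line) of 3 libraries per group. Cxcl12, Cxcl14 and Cxcl15 were lower in bladder than in urethral mesenchyme without overlap at both stages, and Cxcl16 was higher at E18.5 than at E14.5 without overlap.

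Cxcl5, another CXC ligand that attracts neutrophils and a neighbour of Cxcl15 on chromosome 5, had 2, 1 and 0 counts in the E18.5 bladder libraries, against 64, 63 and 52 counts in the E18.5 urethral libraries. Scaled by library size, the urethral level was 46.7 times the bladder level, with an exact binomial 95% interval of 15.7 to 228 that covers counting error only (179 against 3 counts). The ratio was 91.1 without bladder replicate 1 (16.1 to 3.62e+03) and 27.6 without bladder replicate 3 (9.31 to 135). The call in edgeR's test held throughout (adjusted p = 0.00213). At E14.5 Cxcl5 had 0.549, 0.0829 and 0 CPM in bladder, against 0.227, 1.31 and 0.991 CPM in urethra. Those groups overlapped through bladder replicate 1 and urethral replicate 1, and the log2 difference of -2.03 ± 0.90 was not called (adjusted p = 0.118). It was called without bladder replicate 1 (adjusted p = 0.0143) and without replicate 1 of both E14.5 groups (adjusted p = 0.00343), when the bladder libraries left held 2 and 0 counts. The remaining neutrophil-attracting ligands, Cxcl1, Cxcl2 and Cxcl3, lie in the same run of genes between bases 90759360 and 90905938 and had at most 14, 14 and 10 counts in a library.

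Cxcl13, the ligand of Cxcr5 that draws B cells into lymphoid tissue, had 0.747, 1.29 and 1.09 CPM in E18.5 bladder, against 3.35, 5.74 and 4.44 CPM in E18.5 urethra. The E18.5 groups did not overlap, yet the log2 difference of -2.12 ± 0.79 missed the threshold (adjusted p = 0.0571). It was called with DESeq2 (-2.15, adjusted p = 0.0175), with limma-voom (-2.08, adjusted p = 0.0253) and when only the libraries compared were fitted (-2.18, adjusted p = 0.000817). E14.5 values were 1.19, 0.249 and 0.260 CPM in bladder, against 4.77, 0.419 and 0.808 CPM in urethra, so that urethral replicate 1 stood far above its group. The E14.5 difference of -1.81 ± 0.84 was not called (adjusted p = 0.135), but it was with replicate number as a block (-1.57, adjusted p = 0.0144) and without bladder replicate 1 (-2.95, adjusted p = 0.0427). That block rests on E14.5 replicate numbers that are not shown to pair bladder with urethra. Without E14.5 urethral replicate 1 the E18.5 compartment difference was called at the same size (-2.12, adjusted p = 0.00732), and it was also called with replicate number as a block (-2.11, adjusted p = 0.000942). Without E14.5 urethral replicate 1, the urethral stage difference was 2.89 (adjusted p = 0.0069), against 1.19 ± 0.75 with it (adjusted p = 0.279). With all libraries, limma-voom called that stage difference (1.98, adjusted p = 0.0299). In bladder the stage difference was 0.88 ± 0.86 (adjusted p = 0.425), and 2.01 without replicate 1 of both E14.5 groups (adjusted p = 0.00631). Ccl25, a thymic and gut ligand of Ccr9, had 5.12, 5.79 and 5.95 CPM in E18.5 bladder, against 6.01, 5.20 and 4.44 CPM in E18.5 urethra. Its E14.5 libraries held 5.21, 4.23 and 3.42 CPM in bladder, against 2.91, 9.97 and 3.45 CPM in urethra. Its groups overlapped in all comparisons, and its log2 differences lay between -0.35 and 0.39 for the 4 simple comparisons, with none called.

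Cxcl16 and Cx3cl1 are the 2 ligands made as membrane proteins with a stalk that can be shed, and both bind receptors of leukocytes, Cxcr6 and Cx3cr1. Cxcl16 had 13.04, 13.9 and 16.6 CPM in E18.5 bladder, against 7.68, 5.47 and 5.97 CPM in E14.5 bladder. In urethra it had 18.55, 19.2 and 19.05 CPM at E18.5, against 7.41, 4.76 and 3.52 CPM at E14.5. The stages did not overlap in either compartment. Its log2 difference of E18.5 minus E14.5 was 1.19 ± 0.25 in bladder (adjusted p = 0.00201) and 1.86 ± 0.25 in urethra (adjusted p = 0.00054), and both calls held under each alternative run. Between compartments at E18.5 each bladder library lay below each urethral one, but the log2 difference of -0.38 ± 0.24 was not called (adjusted p = 0.254). It was called when only the libraries compared were fitted (-0.44, adjusted p = 0.0327). At E14.5 the compartments of Cxcl16 overlapped (0.28 ± 0.25, adjusted p = 0.427). Exons of Zmynd15 on the opposite strand cover 18.3% of its exon length, and whether counting used strand is not given in the sources used here, so its level is uncertain. How many of its counts could come from Zmynd15 was not measured.

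Cx3cl1, fractalkine, had 17.5, 12.9 and 18.15 CPM in E18.5 urethra, against 13.01, 4.32 and 5.65 CPM in E14.5 urethra. The highest E14.5 library, replicate 1, lay just above the lowest E18.5 library. Its urethral rise had a log2 difference of 1.08 ± 0.33 (adjusted p = 0.0307), and of 1.70 without E14.5 urethral replicate 1 (adjusted p = 0.000409). The call was lost without E14.5 urethral replicates 2 (0.79, adjusted p = 0.0786) or 3 (0.91, adjusted p = 0.124), without E18.5 urethral replicates 1 (1.02, adjusted p = 0.0769) or 3 (0.99, adjusted p = 0.0993), and when only the libraries compared were fitted (1.11, adjusted p = 0.0726). In bladder it had 16.6, 12.8 and 15.9 CPM at E18.5, against 13.6, 15.3 and 15.1 CPM at E14.5, and the log2 difference was 0.04 ± 0.32 (adjusted p = 0.927). Between compartments at E14.5 each bladder library lay above each urethral one, but the log2 difference of 0.94 ± 0.33 missed the threshold (adjusted p = 0.0529). It was called with DESeq2 (0.94, adjusted p = 0.026) and limma-voom (1.16, adjusted p = 0.0171). With the replicate block it was called as well (1.10, adjusted p = 0.0317), though E14.5 replicate numbers are not shown to pair. Without replicate 1 of both E14.5 groups it was 1.60 (adjusted p = 0.00074), and the change of the compartment difference between stages was then -1.70 (adjusted p = 0.00375), against -1.04 ± 0.46 with them (adjusted p = 0.185). Its receptor Cx3cr1, which marks many tissue macrophages, had 41.9, 30.5 and 30.2 CPM in E18.5 urethra, against 23.75, 11.9 and 17.2 CPM in E14.5 urethra. Cx3cr1 was higher at E18.5 there (log2 difference 0.96 ± 0.24, adjusted p = 0.0138), but not called without E14.5 urethral replicate 3 (0.94, adjusted p = 0.0542) or E18.5 urethral replicate 1 (0.79, adjusted p = 0.0555).

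Among ligands of epithelia and mucosa, Ccl27a, the skin ligand of Ccr10, had 1.68, 3.59 and 4.19 CPM in E18.5 bladder, against 7.26, 9.96 and 8.33 CPM in E18.5 urethra. The groups did not overlap, and bladder was lower by a log2 difference of -1.43 ± 0.38 (adjusted p = 0.0101), a call that held under each alternative run. At E14.5 Ccl27a had 8.27, 3.60 and 6.27 CPM in bladder, against 6.997, 11.9 and 7.56 CPM in urethra, with overlap and no call (-0.55 ± 0.37, adjusted p = 0.293). Its near copy Ccl27b lies on the same chromosome, 4, so reads may be divided between the copies and both levels are uncertain, as they are for the near copies Ccl21a and Ccl21b. Ccl28, a mucosal ligand of Ccr10 and Ccr3, had 1.61, 1.61 and 1.22 CPM in E18.5 bladder, against 2.69, 2.09 and 2.95 CPM in E18.5 urethra. Ccl28 had 0.731, 2.07 and 1.17 CPM in E14.5 bladder, against 1.10, 2.12 and 2.06 CPM in E14.5 urethra. Its E18.5 compartments did not overlap, but the log2 difference of -0.81 ± 0.39 was not called (adjusted p = 0.133). It was called when only the libraries compared were fitted (-0.87, adjusted p = 0.0396).

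The monocyte-attracting ligands Ccl2, Ccl7 and Ccl12 act through Ccr2 and lie with Ccl11, Ccl8 and Ccl1 on chromosome 11 between bases 82035571 and 82305690. Ccl2 had 0.523, 0.107 and 0.416 CPM in E18.5 bladder, against 1.95, 2.25 and 0.672 CPM in E18.5 urethra. Bladder was lower without overlap by a log2 difference of -2.15 ± 0.65 (adjusted p = 0.0206), resting on 2 to 14 counts per bladder library. The call was lost without bladder replicate 2 (-1.78, adjusted p = 0.0698) or 3 (-2.27, adjusted p = 0.0513), without urethral replicate 1 (-1.99, adjusted p = 0.064) or 2 (-1.85, adjusted p = 0.0711), and with replicate number as a block (-2.03, adjusted p = 0.0659). At E14.5 Ccl2 had 0.320, 1.12 and 0.951 CPM in bladder, against 1.59, 0.733 and 0.734 CPM in urethra, which overlapped.

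Ccl12, described in the mouse, had 1.85, 1.52 and 2.25 CPM in E18.5 urethra, against 0.416, 0.628 and 0.441 CPM in E14.5 urethra. Its urethral rise had a log2 difference of 1.90 ± 0.51 (adjusted p = 0.0177), with the call lost without E14.5 urethral replicate 3 (1.82, adjusted p = 0.0703) or E18.5 urethral replicate 3 (1.75, adjusted p = 0.0651). Ccl7 had 0.939, 1.56 and 0.789 CPM in E18.5 urethra, against 0.227, 0.340 and 0.220 CPM in E14.5 urethra. The stages did not overlap for either gene. For Ccl7 the log2 difference was 2.01 ± 0.58 (adjusted p = 0.0258), and the call was lost without E14.5 urethral replicates 1 (1.92, adjusted p = 0.062) or 3 (1.90, adjusted p = 0.0932), without E18.5 urethral replicate 2 (1.69, adjusted p = 0.0992) and without replicate 1 of both E14.5 groups (1.91, adjusted p = 0.0572). In bladder the stages overlapped for both, where Ccl12 had 1.009, 0.536 and 1.70 CPM at E18.5, against 0.960, 0.912 and 0.260 CPM at E14.5. Bladder Ccl7 had 0.673, 0.2145 and 1.34 CPM at E18.5, against 0.8685, 0.497 and 0.519 CPM at E14.5. Their receptor Ccr2 had 3.10, 2.83 and 2.48 CPM in E18.5 urethra, against 2.12, 0.523 and 1.47 CPM in E14.5 urethra, without overlap. That log2 difference of 1.05 ± 0.41 was not called (adjusted p = 0.0831), but it was with DESeq2 (1.09, adjusted p = 0.0485), limma-voom (1.33, adjusted p = 0.0272) and without replicate 1 of both E14.5 groups (1.52, adjusted p = 0.0229). In bladder Ccr2 had 1.79, 1.29 and 1.15 CPM at E18.5, against 2.285, 2.94 and 2.42 CPM at E14.5, which also did not overlap (-0.85 ± 0.42, adjusted p = 0.114, called without E14.5 urethral replicate 2 at adjusted p = 0.0277). The change of its compartment difference between stages was -1.90 ± 0.59 (adjusted p = 0.065). It was called with DESeq2 (-1.92, adjusted p = 0.0195), limma-voom (-2.20, adjusted p = 0.0329) and without replicate 1 of both E14.5 groups (-2.43, adjusted p = 0.0201). The E14.5 compartment difference of 0.91 ± 0.42 (adjusted p = 0.128) was called without those libraries as well (1.44, adjusted p = 0.041).

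Of the eotaxins, ligands of Ccr3 that attract eosinophils, Ccl24 was the 1 ligand called higher in bladder. Its E14.5 level was 1.83, 2.11 and 1.903 CPM in bladder, against 0.416, 0.445 and 0.220 CPM in urethra. The bladder libraries lay far above the urethral ones (log2 difference 2.41 ± 0.48, adjusted p = 0.00426), a call that held under each alternative run. At E18.5 it had 3.66, 4.93 and 2.14 CPM in bladder, against 1.27, 2.62 and 0.877 CPM in urethra. Bladder replicate 3 fell below urethral replicate 2, and the log2 difference of 1.18 ± 0.43 missed the threshold (adjusted p = 0.0506). With replicate number as a block it was 1.24 (adjusted p = 0.0131), and it was also called without bladder replicate 3 (1.45, adjusted p = 0.0289) or urethral replicate 2 (1.72, adjusted p = 0.0117). In urethra Ccl24 was higher at E18.5, 4.27-fold (log2 difference 2.10 ± 0.48, adjusted p = 0.00864).

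Ccl11, eotaxin, had 5.755, 7.88 and 5.95 CPM in E18.5 bladder, against 2.97, 2.196 and 1.17 CPM in E14.5 bladder. In urethra it had 5.53, 6.15 and 6.31 CPM at E18.5, against 6.505, 1.41 and 0.881 CPM at E14.5. In bladder the stages did not overlap, while in urethra E14.5 replicate 1 stood at the E18.5 level. The bladder rise of 1.63 ± 0.60 on the log2 scale (adjusted p = 0.0428) was lost without E14.5 bladder replicates 2 (adjusted p = 0.0927) or 3 (0.142), without E18.5 bladder replicates 1 (0.0688), 2 (0.102) or 3 (0.0718), without E18.5 urethral replicates 1 (0.0559), 2 (0.0564) or 3 (0.0578), and without a low-count filter (0.0866). Its log2 difference ranged from 1.33 to 1.71 under those settings. The urethral difference was 1.04 ± 0.58 (adjusted p = 0.218), and 2.37 without E14.5 urethral replicate 1 (adjusted p = 0.00159). The remaining eotaxin, Ccl26, had no count in any library. Ccr3 itself summed to 28 counts over the bladder libraries of E18.5 and to 2 over the urethral ones, a ratio of 17.9 (exact binomial 95% interval 4.51 to 155, counting error only), or 9.72 without bladder replicate 3 (2.01 to 92.4). In edgeR's test that call (adjusted p = 0.0184) was lost without E18.5 bladder replicate 3 (0.0961), urethral replicate 2 (0.0561) or urethral replicate 3 (0.0681). Without urethral replicate 1 the E18.5 urethral libraries held 0 counts of Ccr3.

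Ccl6 and Ccl9, ligands of Ccr1 known from the mouse and made by macrophages and other myeloid cells, lie on chromosome 11 with Ccl3, Ccl4 and Ccl5 between bases 83525778 and 83664683. Ccl6 had 1.38, 3.16 and 2.56 CPM in E18.5 bladder, against 0.960, 0.663 and 0.346 CPM in E14.5 bladder. In urethra it had 1.68, 4.59 and 1.34 CPM at E18.5, against 0.340, 0.576 and 0.257 CPM at E14.5. The stages did not overlap in either compartment. In urethra the log2 difference was 2.64 ± 0.58 (adjusted p = 0.00672), and 1.91 without E18.5 urethral replicate 2, the highest library (adjusted p = 0.0322). In bladder it was 1.84 ± 0.56 (adjusted p = 0.0179), a call lost without E14.5 bladder replicate 3 (1.54, adjusted p = 0.0749) or E18.5 bladder replicate 2 (1.59, adjusted p = 0.0581).

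Ccl9 had 2.715, 11.7 and 2.69 CPM in E18.5 urethra, against 0.719, 0.890 and 0.514 CPM in E14.5 urethra. Replicate 2 at E18.5 stood far above the other libraries, and it was also the highest of the 12 for Ccl6. The log2 difference was 2.98 ± 0.70 (adjusted p = 0.0103), and 1.92 without that library (adjusted p = 0.0456), and the call was lost without E14.5 urethral replicate 3 (2.80, adjusted p = 0.0523). In bladder Ccl9 had 1.495, 3.22 and 3.55 CPM at E18.5, against 4.11, 1.24 and 1.08 CPM at E14.5, which overlapped (0.36 ± 0.66, adjusted p = 0.676). For the change of its compartment difference between stages, the log2 value was -2.62 ± 0.95 (adjusted p = 0.11). DESeq2 called that change (-2.68, adjusted p = 0.0292).

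Macrophage markers were higher at E18.5 as well. The summed level of 12 macrophage markers was 425.2 to 523.2 CPM in E18.5 bladder and 283.2 to 299.8 CPM in E18.5 urethra, and 189.9 to 238.9 CPM in E14.5 bladder and 88.99 to 133.2 CPM in E14.5 urethra, with none of the 12 at 0 in all libraries. Of the 12, 11 were higher at E18.5 in urethra (median log2 difference 1.60) and 6 in bladder (median 0.75), with 0 lower. Between compartments at E18.5, 3 were higher in bladder (Mrc1, Cd163 and Lyve1) and 2 lower (Fcgr1 and C1qa), with a median of -0.08. The higher E18.5 sum in bladder rests mainly on Mrc1 (mean 167.9 CPM, against 58.46 in urethra) and Lyve1 (87.29 against 14.08). C1qa averaged 19.3 CPM in E18.5 bladder, against 35.09 CPM in urethra. At E14.5, 4 were higher in bladder and 0 lower (median 0.58). Immediate early genes, which respond to handling as well as to signals, summed to 606 to 656.3 CPM in E18.5 bladder and 569.9 to 885.9 CPM in E18.5 urethra, and to 368.3 to 424.7 CPM in E14.5 bladder and 377.7 to 468 CPM in E14.5 urethra, with E18.5 urethral replicate 2 the highest. They were higher at E18.5 for 11 of 14 in urethra and 7 of 14 in bladder. Interferon response genes were higher at E18.5 for 12 of 12 in urethra and 8 of 12 in bladder, and NF-kB response genes for 7 of 9 in urethra and 5 of 9 in bladder, where 1, Vcam1, was lower. Markers of further cell types were also higher at E18.5. Epithelial markers were called higher for 9 of 16 in urethra (median log2 difference 1.99) and 16 of 16 in bladder (3.56), and skeletal muscle markers for 10 of 10 in urethra (4.29) and 5 of 10 in bladder (3.90). Those 5 were Acta1, Myh8, Ckm, Tnnt3 and Tnni2. The skeletal muscle markers not called, Myod1, Myog, Myf5, Pax7 and Myh3, averaged 0.0571, 0.264, 0.0855, 0.125 and 3.62 CPM in E18.5 bladder. Of 5 tested mast cell markers, 4 were higher in urethra (median 4.02) and in bladder (4.10), where Kit was lower. The summed level of the 8 on that list was 48.24 to 70.74 CPM in E18.5 bladder and 56.92 to 72.09 CPM in E18.5 urethra, and 38.67 to 92.94 CPM in E14.5 bladder and 37.71 to 46.26 CPM in E14.5 urethra. Outside E18.5 bladder that sum rests mainly on Kit. Kit averaged 14.01 CPM in E18.5 bladder, 52.49 CPM in E18.5 urethra, 59.99 CPM in E14.5 bladder and 40.71 CPM in E14.5 urethra. Cpa3, called higher at E18.5, averaged 17.39, 4.835, 1.724 and 0.6844 CPM in the same order. Of 5 tested neutrophil and monocyte markers, 3 were higher in urethra and 2 in bladder, with the 9 on that list summing to 29.19 to 63.66 CPM in E18.5 bladder and 12.86 to 17.62 CPM in E18.5 urethra, and to 6.174 to 9.279 CPM in E14.5 bladder and 3.896 to 4.919 CPM in E14.5 urethra. Those sums rest mainly on Plac8, which averaged 39.83 CPM in E18.5 bladder and 8.918 CPM in E18.5 urethra. Between compartments at E18.5, 2 of the 5 were higher in bladder (Mpo and Plac8) and 0 lower. The median log2 difference was -0.25, and S100a8 averaged 2.367 CPM in bladder, against 2.808 CPM in urethra. The part of these genes' cells or states in the ligand differences was not tested. In RNA from whole tissue, fewer cells of a type and less RNA per cell cannot be told apart.

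Neuronal markers, like Cxcl12, Cxcl14 and Cxcl15, were lower in bladder. The sum of 10 such genes was 97.27 to 218.4 CPM in E18.5 bladder and 799.7 to 2152 CPM in E18.5 urethra, and 125.6 to 524.8 CPM in E14.5 bladder and 793.4 to 1242 CPM in E14.5 urethra. All 10 were lower in bladder at E18.5 and 9 of 10 at E14.5. Smooth muscle markers ran the other way, with 10 of 10 higher in bladder at E18.5 and 8 of 10 at E14.5. Mesenchymal markers were divided, with 3 of 10 higher in bladder at E18.5 (Col1a1, Col1a2 and Col3a1) and 7 of 10 at E14.5. Pdgfra and Pdgfrb were lower in bladder at both stages. Of 10 blood endothelial markers, 4 were lower in bladder at E18.5, whereas 3 were higher at E14.5. Glial markers were lower in bladder for 5 of 7 at E18.5 and 4 of 7 at E14.5. Skeletal muscle markers were lower for 5 of 10 and higher for 3 of 10 at E18.5, and lower for 2 of 10 at E14.5. Mesothelial markers were higher in bladder for 5 of 8 at E18.5 and 4 of 8 at E14.5, where 1 was lower. Epithelial markers were higher for 6 of 16 at E18.5, and at E14.5 higher for 2 and lower for 3. Mast cell markers were higher for 4 of 5 at E18.5, where Kit was lower, and for 2 of 5 at E14.5. The part of any of these cells in the ligand differences was not tested.

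The 21 untested ligands were low, with group means of at most 2.76 TPM, reached by Cxcl17 in E18.5 urethra. Ccl26 and Xcl1 had no count in 12 libraries, and 3 counts correspond to 0.1396 CPM in the shallowest library. Where both mates of a read pair are counted, 3 counts are fewer than 3 fragments, so that level is not an upper limit. Xcl1 is a ligand of Xcr1 on dendritic cells. Cxcl10, an interferon-induced ligand of Cxcr3, had the highest count of a library among them, with 12, 48 and 8 counts in E18.5 urethra, against 0, 1 and 0 counts in E14.5 urethra. In bladder it had 2, 0 and 4 counts at E18.5, against 2, 2 and 4 counts at E14.5. Without the low-count filter Cxcl10 was called higher at E18.5 in urethra (adjusted p = 0.00208), where the ratio of summed counts was 63.7 (exact binomial 95% interval 11.1 to 2.55e+03, counting error only), or 25 without E18.5 urethral replicate 2 (3.99 to 1.03e+03), and lower in E18.5 bladder than in E18.5 urethra (log2 difference -3.37, adjusted p = 0.0133). Cxcl17, a mucosal ligand, had 13, 26 and 6 counts in E18.5 urethra, against 2, 0 and 0 counts in E14.5 urethra. That rise, a ratio of 21.1 (5.51 to 179), or 11.9 without E18.5 urethral replicate 2 (2.86 to 105), was called without the filter (adjusted p = 0.0289) and without replicate 1 of both E14.5 groups (adjusted p = 0.0259). Ccl3, made by activated leukocytes, had 34 counts in E18.5 bladder replicate 3, against 2 and 0 counts in the other 2 libraries of that group, and it passed the filter and was called higher at E18.5 in bladder without E18.5 bladder replicate 1 (adjusted p = 0.04) or 2 (adjusted p = 0.0248). Cxcl2 had 12, 10 and 14 counts in E18.5 urethra, against 0, 10 and 0 counts in E14.5 urethra. Without E14.5 urethral replicate 2, its 1 library there with counts, Cxcl2 was tested and called higher at E18.5 in urethra (adjusted p = 0.011) and in bladder (adjusted p = 0.0342), and lower in E18.5 bladder than in E18.5 urethra (-2.17, adjusted p = 0.0286). Ccl21a, which guides dendritic and T cells to lymph nodes, had 26 counts in E14.5 urethral replicate 2 and at most 2 counts in any other library. Of the rest, Ccl1, Ccl5, Ccl8, Ccl19, Ccl20, Ccl21b, Ccl27b, Cxcl3, Cxcl9 and Cxcl11 had at most 10 counts in a library, and Ccl4, Ccl17, Ccl22, Cxcl1 and Cxcl2 at most 17.

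Among receptors, 7 of 17 signalling and 5 of 5 atypical chemokine receptors examined passed the filter, and the pair that binds Cxcl12 was lower in bladder at both stages. Cxcr4 had 3.89, 5.31 and 3.78 CPM in E18.5 bladder, against 11.98, 9.34 and 11.02 CPM in E18.5 urethra. The earlier stage had 5.90, 7.75 and 5.71 CPM in bladder, against 14.8, 13.9 and 16.4 CPM in urethra. No bladder library reached a urethral one of the same stage (log2 difference -1.32 ± 0.21, adjusted p = 0.00041 at E18.5, and -1.22 ± 0.21, adjusted p = 0.00163 at E14.5). Ackr3, an atypical receptor that takes up Cxcl12, had 37.4, 27.5 and 38.05 CPM in E18.5 bladder, against 104.4, 75.6 and 87.1 CPM in E18.5 urethra. Ackr3 levels at E14.5 were 49.8, 39.4 and 59.4 CPM in bladder, against 156, 134 and 125 CPM in urethra. These groups did not overlap (log2 difference -1.37 ± 0.18, adjusted p = 0.00011 at E18.5, and -1.48 ± 0.18, adjusted p = 0.000229 at E14.5). The compartment calls of both receptors held under each alternative run. Between stages Ackr3 was lower at E18.5 in bladder (log2 difference -0.53 ± 0.18, adjusted p = 0.0288) and in urethra (-0.63 ± 0.18, adjusted p = 0.0213). The bladder call was lost without E14.5 bladder replicates 1 (-0.51, adjusted p = 0.0606) or 3 (-0.38, adjusted p = 0.138), without E18.5 bladder replicate 2 (-0.39, adjusted p = 0.113), when only the libraries compared were fitted (-0.51, adjusted p = 0.051) and without replicate 1 of both E14.5 groups (-0.51, adjusted p = 0.0566). The urethral call was lost without E14.5 urethral replicate 1 (-0.54, adjusted p = 0.0616), E18.5 urethral replicates 2 (-0.53, adjusted p = 0.0937) or 3 (-0.62, adjusted p = 0.072) and without replicate 1 of both E14.5 groups (-0.54, adjusted p = 0.0633). Cxcr4 was lower at E18.5 in bladder (-0.58 ± 0.21, adjusted p = 0.0382), a call lost under 9 alternatives with log2 differences between -0.61 and -0.43, among them the fits without E14.5 bladder replicate 2 (adjusted p = 0.153), E18.5 bladder replicates 1 (0.112) or 3 (0.128), E14.5 urethral replicate 3 (0.0507) or E18.5 urethral replicate 3 (0.0557).

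Ccr1, the receptor of Ccl6 and Ccl9, showed a compartment difference that changed between stages. It had 1.23, 2.04 and 2.37 CPM in E18.5 bladder, against 7.87, 7.62 and 8.50 CPM in E18.5 urethra. Ccr1 at E14.5 had 5.805, 3.315 and 4.54 CPM in bladder, against 3.37, 3.925 and 3.67 CPM in urethra. At E18.5 the compartments lay far apart (log2 difference -2.09 ± 0.29, adjusted p = 0.000162), and at E14.5 they overlapped (0.31 ± 0.28, adjusted p = 0.43). The change of the difference, E18.5 minus E14.5, was -2.40 ± 0.40 (adjusted p = 0.00418). Ccr1 was lower at E18.5 in bladder (-1.27 ± 0.29, adjusted p = 0.00326) and higher at E18.5 in urethra (1.13 ± 0.28, adjusted p = 0.0117). Of 12 macrophage markers, 2 had a lower change called as well (Fcgr1 and C1qb), and their part in the receptor result was not tested.

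**Figure D4:**
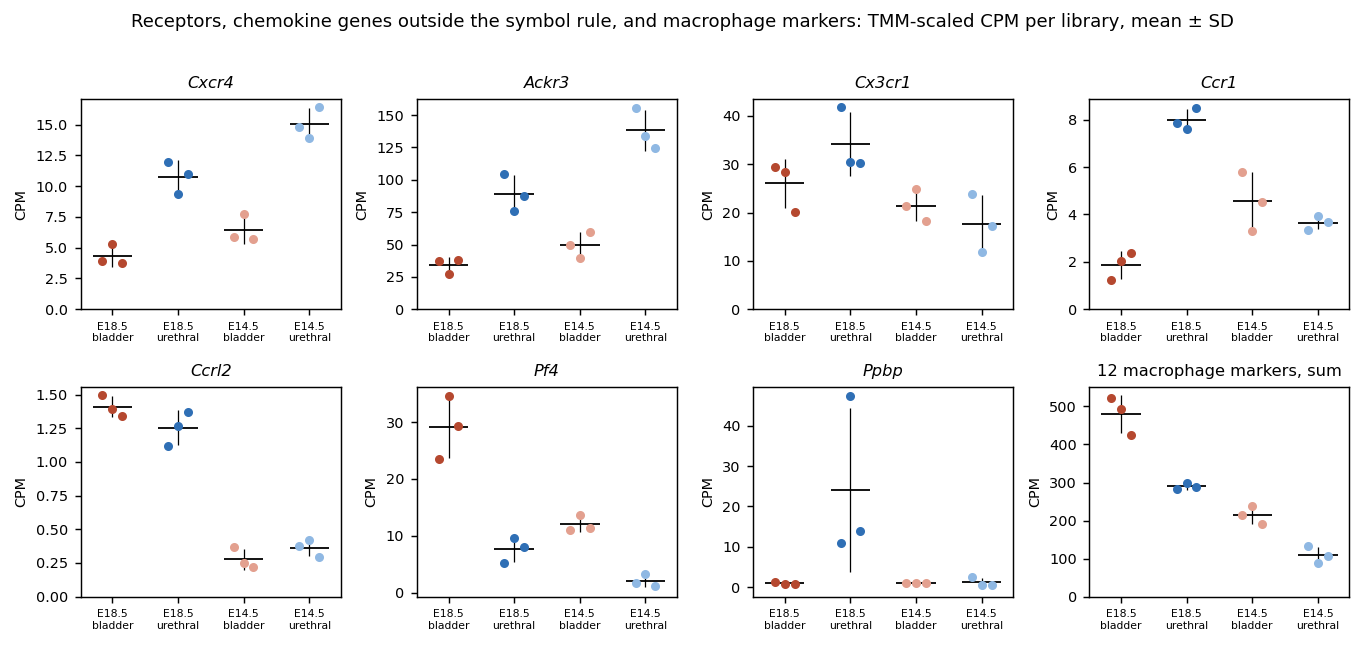
CPM per library (points) with mean and SD of 3 libraries per group for chemokine receptors, for Pf4 and Ppbp, and for the sum of 12 macrophage markers. Cxcr4 and Ackr3 were lower in bladder than in urethra at both stages, whereas Ccr1 was lower in bladder at E18.5 and its compartments overlapped at E14.5.

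The remaining called receptors had group means of 2 CPM or less. Ccrl2, an atypical receptor that presents chemerin, was higher at E18.5 in bladder (log2 difference 2.34 ± 0.37, adjusted p = 0.000306) and in urethra (1.76 ± 0.35, adjusted p = 0.00391). Ackr4, which removes Ccl19, Ccl21 and Ccl25, had 1.42, 1.98 and 2.46 CPM in E18.5 bladder, against 0.736, 0.615 and 0.701 CPM in E18.5 urethra. The Ackr4 libraries did not overlap, but the call (1.51 ± 0.53, adjusted p = 0.0427) was lost without any 1 of E18.5 bladder replicates 2 (0.0871) and 3 (0.14) and E18.5 urethral replicates 1 (0.1), 2 (0.116) and 3 (0.107), with the block (0.0601) and without a filter (0.0534). At E14.5 Ackr4 had 1.05, 0.166 and 0.346 CPM in bladder, against 0.0756, 0.131 and 0.220 CPM in urethra. It was higher at E18.5 in bladder (1.92 ± 0.55, adjusted p = 0.0135), a call lost without E14.5 bladder replicate 3 (1.69, adjusted p = 0.0603) or E18.5 bladder replicate 3 (1.71, adjusted p = 0.0522), and 2.93 without replicate 1 of both E14.5 groups (adjusted p = 0.000793). In urethra it was higher at E18.5 as well (2.24 ± 0.63, adjusted p = 0.0225), a call lost without E14.5 urethral replicates 1 (0.0614) or 2 (0.0607) or E18.5 urethral replicates 1 (0.0539) or 3 (0.0588). Ccr4, the receptor of Ccl17 and Ccl22, had 1.42, 1.555 and 1.63 CPM in E18.5 bladder, against 0.254, 0.164 and 0.4675 CPM in E18.5 urethra. Those libraries lay far apart, yet the call (2.34 ± 0.73, adjusted p = 0.025) was lost without E18.5 bladder replicates 1 (0.0532), 2 (0.0585) or 3 (0.0657) or E18.5 urethral replicates 1 (0.0959) or 2 (0.0967). In bladder Ccr4 was higher at E18.5, against 0.274, 0 and 0 CPM at E14.5 (4.06 ± 0.89, adjusted p = 0.00263), a call held under each alternative run. In urethra, against 0, 0.0523 and 0.0734 CPM at E14.5, its stage difference was 2.68 ± 1.00 (adjusted p = 0.0701), called with DESeq2 (adjusted p = 0.0363), limma-voom (0.0494) and without replicate 1 of both E14.5 groups (0.0452). Without those libraries the change of its compartment difference was also called (adjusted p = 0.035), with both remaining E14.5 bladder libraries at 0. Ccr7, the receptor of Ccl19 and Ccl21, had 0, 0 and 0.064 CPM in E18.5 bladder, against 0.274, 0.0829 and 0.346 CPM in E14.5 bladder. That was 2 against 16 counts, with the E14.5 level 8.87 times the E18.5 level (exact binomial 95% interval 2.09 to 79.5, counting error only). In urethra Ccr7 had 0.0508, 0.164 and 0.117 CPM at E18.5, against 0.454, 0.419 and 0.551 CPM at E14.5. It was lower at E18.5 in bladder (adjusted p = 0.0231) and in urethra (-2.12 ± 0.69, adjusted p = 0.0404). The bladder call was lost under 5 alternatives, without E14.5 bladder replicates 1 (0.0515) or 3 (0.0879), E18.5 bladder replicates 1 (0.0795) or 2 (0.0627) or replicate 1 of both E14.5 groups (0.0629). The urethral call was lost under 11 alternatives, among them leaving out any 1 of the 6 urethral libraries (0.0599 to 0.153), E14.5 bladder replicate 3 (0.0511) or replicate 1 of both E14.5 groups (0.0713). Ccr3 was lower at E18.5 in urethra, with 2 against 35 counts, the E14.5 level being 18.7 times the E18.5 level (4.80 to 160). That call (adjusted p = 0.0225) was lost without E14.5 urethral replicates 2 (0.0559) or 3 (0.0636) or E18.5 urethral replicates 2 (0.0731) or 3 (0.0844).

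The platelet chemokines Pf4 and Ppbp are CXC ligands whose symbols fall outside the rule, and they differed in opposite directions between compartments at E18.5. Pf4, which tissue macrophages also make, had 23.6, 34.5 and 29.25 CPM in E18.5 bladder, against 5.23, 9.67 and 8.01 CPM in E18.5 urethra. Pf4 at E14.5 had 11.1, 13.6 and 11.3 CPM in bladder, against 1.74, 3.30 and 1.175 CPM in urethra. Bladder was higher without overlap at E18.5 (log2 difference 1.93 ± 0.33, adjusted p = 0.000605) and at E14.5 (2.51 ± 0.34, adjusted p = 0.000442). Ppbp had 1.16, 0.858 and 0.768 CPM in E18.5 bladder, against 10.9, 47.4 and 13.8 CPM in E18.5 urethra. At E14.5 it had 1.01, 1.08 and 1.08 CPM in bladder, against 2.53, 0.576 and 0.441 CPM in urethra. The E18.5 urethral libraries stood apart from all others, replicate 2 most of all (log2 difference of bladder minus urethra -4.68 ± 0.73, adjusted p = 0.00045, or -3.73 without that library, adjusted p = 0.000774). The change of the Ppbp difference between stages was -4.55 ± 0.99 (adjusted p = 0.0168). It was -3.59 without E18.5 urethral replicate 2 (adjusted p = 0.0267) and -5.72 without E14.5 urethral replicate 1 (adjusted p = 0.00264), and the call was lost with limma-voom (-4.59, adjusted p = 0.0646) and without a filter (-4.54, adjusted p = 0.0534). The summed level of the other 4 platelet and megakaryocyte markers was 5.573 CPM in that E18.5 urethral replicate 2, within the 2.056 to 6.648 CPM of all 12 libraries. Itga2b alone held 5.245 CPM of that sum and Gp9 0.082 CPM, so it rests mainly on Itga2b.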

How the data were processed

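Poly(A) RNA was sequenced from the 12 libraries as paired reads of a directional kit, per the labels' protocols. Reads were aligned to GRCm38, with HISAT2 2.2.1, SAMtools 1.9 and bcl2fastq listed as tools, per the submitters' processing notes. Which program counted reads, with which strand setting and annotation, is not given in the sources used here. The authors deposited unnormalized counts per gene, with 1 table for each stage. Counts of 2 outnumbered counts of 1 by a factor of 2.06 to 2.51 in the 12 libraries, as arises where both mates are counted, so that intervals on counts are too narrow for fragments and cover counting error only. Summed exon lengths, an additional column per the file headers, served for TPM.

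filterByExpr of edgeR 4.0.16 in R 4.3.3 (minimum count 10) chose the genes tested. Scaling was by TMM, and robust quasi-likelihood F tests compared 4 group means with 8 residual degrees of freedom. Adjustment was by Benjamini-Hochberg over 18805 genes within a comparison. CPM is per TMM-scaled library total. SE is the log2 difference divided by the square root of F. Members were named in full where they passed the filter and reached 1 CPM in a group mean. The members and the 23 gene lists were chosen with earlier results of these data known. Alternatives were DESeq2 1.42.0, limma-voom (limma 3.58.1), median-ratio size factors, no filter, a stricter filter (1 CPM and 10 counts), only the libraries compared, replicate number as a block, each library left out in turn, and both E14.5 libraries numbered 1 left out together. Same-numbered E18.5 libraries deviated together (correlations 0.197, 0.193 and 0.286), so the numbers were taken to pair bladder with urethra at that stage. At E14.5 they did not all do so (0.191, -0.0285 and 0.206), so a block call there rests on numbers not shown to pair. For stage comparisons the block tied equal numbers across stages, which are different litters. The main tests left pairing out. Scripts were tested on simulated data. One chemokine receptor is not reported here.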

Additional observations from a re-analysis of the deposited data

Results flagged for a closer look

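For 2 of the chemokine genes reported here the difference between bladder and urethral mesenchyme changed between stages by edgeR's test of that change itself, adjusted over all tested genes. Neither is among the 38 ligands. For Ccr1, a receptor of Ccl6 and Ccl9, the change of the log2 difference, E18.5 minus E14.5, was -2.40, with bladder below urethra at E18.5 in 3 of 3 libraries. For the platelet chemokine Ppbp it was -4.55, with the 3 E18.5 urethral libraries above all others. Groups of 3 libraries were too small for a test of single outlying libraries.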

How the results depend on the processing

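For bladder against urethra at E14.5, 2 ligands (Ccl24 and Cx3cl1) rather than 1 were called higher with DESeq2, with limma-voom, with replicate number as a block and without replicate 1 of both E14.5 groups. At E18.5, 1 ligand (Ccl24) rather than 0 was called higher with DESeq2, with limma-voom, with the stricter filter and with replicate number as a block, and 10 rather than 6 were called lower when only the libraries compared were fitted. For the change of the difference between stages, 1 ligand rather than 0 was called lower with DESeq2 (Ccl9), without a filter (Cxcl10) and without replicate 1 of both E14.5 groups (Cx3cl1). For bladder between stages, 2 rather than 1 were called lower with DESeq2 (Ccl27a and Cxcl12), and 5 rather than 3 were called higher without replicate 1 of both E14.5 groups. The cause was not tested. With 1 library left out at a time, calls of higher and lower numbered 1 to 2 and 2 to 5 for the compartments at E14.5, 0 to 1 and 5 to 8 at E18.5, 0 to 0 and 0 to 1 for the change between stages, 1 to 4 and 1 to 2 for stages in bladder, and 4 to 9 and 0 to 0 for stages in urethra. The low end of 4 came without E14.5 urethral replicate 3. With the replicate block, 6 ligands were called lower at E18.5 (Ccl2 lost and Cxcl13 gained), 4 were called lower at E14.5, and in urethra 8 were called higher between stages. The E14.5 numbers are not shown to pair, and equal numbers across stages are different litters. For single genes with an unadjusted p under 0.05 with all libraries, 1221 values over the settings kept their direction and side of the threshold, 96 lost a call, 48 gained one and none of these reversed. Apart from these, of 54 differences of ligands named in full with an unadjusted p of 0.05 or more, 18 changed sign and 8 were called under at least 1 alternative. Ligands under about 1 CPM rest on few counts.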
